A study of Mus musculus with 12 samples.

Results

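Mouse CD4+ T helper cells polarized for 3 days under Th1 or Th2 conditions were compared gene by gene. The genes compared were the 9968 of 23700 listed loci that span at least 300 bp and reached at least 2 FPKM (mapped fragments scaled by transcript length and library size) in the Th1 or the Th2 library. The study holds 12 samples, 10 RNA libraries of CD4+ T cells and a chromatin immunoprecipitation (ChIP) of Bach2 with its input, from spleen and lymph nodes of C57BL/6J mice. Sorted naive cells of wild type genotype, negative for CD44 and CD25 and positive for CD62L, were the starting cells of both helper cultures, and plate-bound antibodies to CD3 and CD28, each at 10 μg/ml, were the stimulus of both. The Th1 culture received IL-12 at 20 ng/ml and an antibody against IL-4 at 10 μg/ml. The Th2 culture received IL-4 at 20 ng/ml and an antibody against IFN-γ at 10 μg/ml. The 2 cultures thus differed in both the added cytokine and the blocked one, and their parts cannot be told apart. Each condition has 1 library, so no difference between them has a replicate check. The libraries set beside them were a Th17 culture (IL-6 at 20 ng/ml, TGF-β1 at 2 ng/ml and both blocking antibodies), 3 Bach2-deficient (Bach2KO) and 3 wild type (WT) cultures in the induced regulatory (iTreg) condition (IL-2 at 100 IU/ml and TGF-β1 at 5 ng/ml), and fresh naive wild type cells. The sources used here give neither the age nor the number of the mice.

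Naive CD4+ T cells take up different effector programmes depending on the cytokines around them when the T cell receptor is engaged. IL-12, which acts through STAT4, and IFN-γ induce T-bet (Tbx21), the factor that drives Th1 cells, which make IFN-γ and direct immunity against intracellular microbes. IL-4 acts through STAT6 to induce GATA3, the factor that drives Th2 cells, which make IL-4, IL-5 and IL-13 and act in immunity to worms and in allergy.

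The files give no read totals. The deposited confidence intervals imply 13.9 M reads over single-start genes in the Th1 library and 13.99 M in the Th2 library, and the summed FPKM was 464264 in Th1 and 472069 in Th2. All 12 T cell markers were kept, and 1 of them was called, Cd5, a dampener of T cell receptor signals (286 FPKM in Th1 and 139.8 FPKM in Th2, a call lost under all 3 scalings tried). None of the 10 B cell markers, 11 myeloid markers or 8 mast cell and basophil markers reached the minimum. Summed over their lists, B cell markers came to 1.22 FPKM in Th1 and 2.42 FPKM in Th2, myeloid markers to 0.236 FPKM in Th1 and 1.70 FPKM in Th2, and mast cell and basophil markers to 0.335 FPKM in Th1 and 0.12 FPKM in Th2. Markers of CD8, natural killer (NK) and gamma-delta T cells summed to 6.82 FPKM in Th1 and 7.54 FPKM in Th2. Of their 8 loci 1 was kept, and it was not called. The cytotoxic T cell marker Cd8a among them had 0.0651 FPKM in Th1 and 0.0160 FPKM in Th2. Markers of dendritic cells and MHC class II summed to 136 FPKM in Th1 and 207 FPKM in Th2, with 3 of 10 kept. The transcript Xist had 134 FPKM in Th1 and 156 FPKM in Th2 and at most 0.00949 FPKM in the 6 iTreg libraries, while the Y-linked Ddx3y had 0.0239 FPKM in Th1, was listed at 0 in Th2 and averaged 14.04 ± 0.551 FPKM in Bach2KO and 18.6 ± 0.471 FPKM in WT iTreg cells (SD, n = 3 each). The helper and the iTreg libraries thus differ in sex-linked transcripts, and the part of this in the comparisons with iTreg cells below was not tested.

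A gene was called when the deposited intervals of its 2 values did not overlap and its difference on the log2(FPKM + 0.5) scale, Th1 minus Th2, was at least 1 (2-fold). At most of the low-count single-start genes the intervals reach 2 Poisson standard deviations to each side. At other genes they can be wider, as for Atp6v0c-ps2 in Th2 (0.0134 FPKM, interval 0 to 0.115). They hold no spread between cultures. By this rule 456 genes, 4.57% of the genes kept, were higher in Th1 and 229 genes, 2.30%, were higher in Th2, which makes 685 genes or 6.87% in all. Of the calls, 66.6% were on the Th1 side. The difference reached 4-fold for 136 genes higher in Th1 and 71 higher in Th2, and 8-fold for 46 genes higher in Th1 and 29 higher in Th2. Most genes lay close together: 80.1% of the genes kept differed by no more than 0.5 on the log2 scale, and the median difference over all genes kept was 0.05. The closest calls to the threshold were Cnn3 (49.9 FPKM in Th1 and 24.7 FPKM in Th2) and Pcsk4 (3.20 FPKM in Th1 and 6.91 FPKM in Th2), and just under it lay Anxa6 (190.1 FPKM in Th1 and 94.8 FPKM in Th2) and Bcam (3.68 FPKM in Th1 and 7.86 FPKM in Th2).

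The only replicate spread in the series is that of the iTreg cultures. The same rule called 37, 7 and 132 genes (0.380%, 0.0718% and 1.35% of the genes kept) in the 3 pairs of Bach2KO replicates and 46, 13 and 22 genes (0.484%, 0.137% and 0.232%) in the 3 pairs of WT replicates. The SD of the log2 difference over genes was 0.638 between Th1 and Th2, against 0.153 to 0.327 between iTreg replicates. Of all genes kept, 49.9% differed between Th1 and Th2 by more than the widest range of that gene among the 3 Bach2KO or among the 3 WT libraries, and of the 685 called genes, which were chosen for a large difference, 98.7% did. Intervals without a fold threshold are a much looser rule. They were apart for 50.0% of the genes between Th1 and Th2, and for 12.2% to 47.6% between iTreg replicates.

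**Figure D1:**
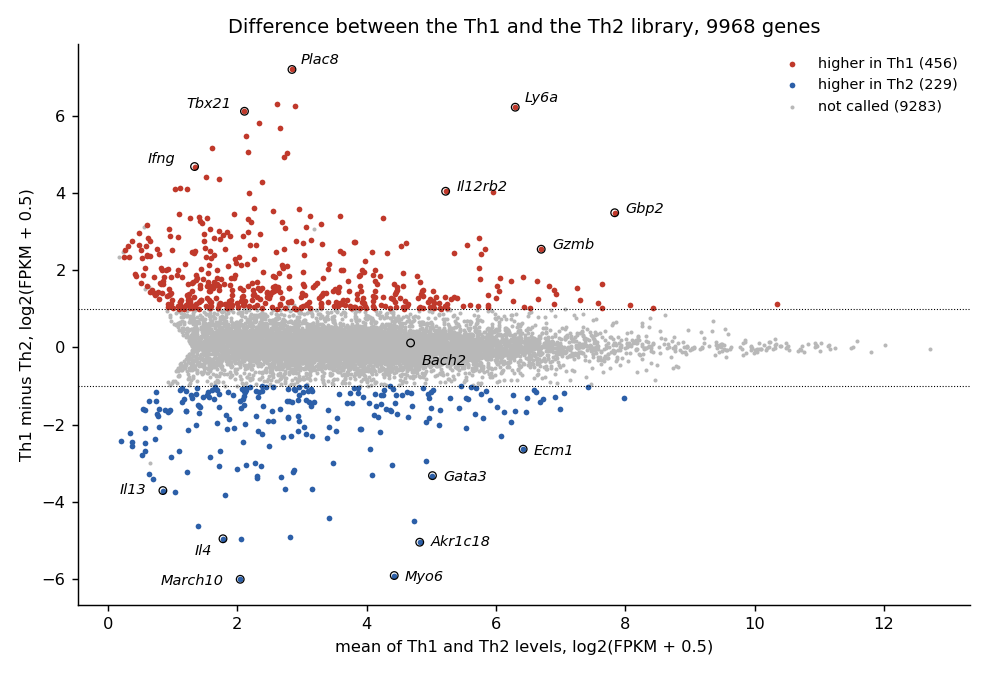
Difference between Th1 and Th2 (y axis, Th1 minus Th2 on the log2(FPKM + 0.5) scale) against the mean level of the 2 libraries (x axis, same scale) for the 9968 genes kept. Red points are the 456 genes called higher in Th1, blue points the 229 called higher in Th2, grey points the rest, and dotted lines mark a 2-fold difference. Plac8 stands at the top, March10 and Myo6 at the bottom, and Bach2 at 0.12.

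The transcription factors and receptors of the Th1 programme were mostly higher in Th1. Of 23 listed genes 18 were kept, 11 were called higher in Th1 and 2 higher in Th2, with a median difference of 2.37. A gene near 0 in 1 library was kept only if it reached 2 FPKM in the other, so counts over the genes kept favour differences here and in the lists below. Of all genes kept, 4.57% were called higher in Th1 and 2.30% higher in Th2, the shares to set beside every list count. Tbx21, which encodes T-bet, had 35.5 FPKM (interval 33.8 to 37.2) in Th1 and 0.0198 FPKM (0 to 0.0593) in Th2, a log2 difference of 6.12. It was thus present in Th1 cells and near 0 in Th2 cells. Il12rb2, the inducible chain of the IL-12 receptor, had 151 FPKM in Th1 and 8.70 FPKM in Th2, whereas Il12rb1, the chain shared with the IL-23 receptor, had 53.3 FPKM in Th1 and 49.3 FPKM in Th2 and was not called. Hlx, a homeobox factor that acts with T-bet, had 3.37 FPKM in Th1 and was listed at 0 in Th2. The 2 chains of the IL-18 receptor went together: Il18r1 had 12.8 FPKM in Th1 and 0.124 FPKM in Th2, and Il18rap had 2.57 FPKM in Th1 and was listed at 0 in Th2. Both were therefore close to absent from the Th2 library.

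Other Th1-linked factors differed less. Stat4, which carries the IL-12 signal, had 33.5 FPKM in Th1 and 20.4 FPKM in Th2 (log2 difference 0.70, not called), and Runx3, a partner of T-bet, had 55.2 FPKM in Th1 and 51.1 FPKM in Th2. Eomes, a T-box relative of T-bet, stayed under the minimum in both, with 0.430 FPKM in Th1 and 0.0595 FPKM in Th2. Irf1 (117 FPKM in Th1 and 18.3 FPKM in Th2) and Irf8 (125 FPKM in Th1 and 23.2 FPKM in Th2), factors induced by interferon, were both called higher in Th1. Twist1, a repressor known from Th1 cells, had 2.18 FPKM in Th1 and 0.0325 FPKM in Th2. The IFN-γ receptor was split between its chains: the ligand-binding chain Ifngr1 had 41.03 FPKM in Th1 and 20.1 FPKM in Th2, and the signalling chain Ifngr2 had 11.7 FPKM in Th1 and 39.4 FPKM in Th2, higher in Th2. The difference of Ifngr1 lay close to the 2-fold threshold. Id2, an inhibitor of E proteins, was the other member higher in Th2, at 66.3 FPKM in Th1 and 168 FPKM in Th2.

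The products of Th1 effector cells followed the same direction. Of 26 listed genes 18 were kept, 13 were called higher in Th1 and 2 higher in Th2, with a median difference of 2.65. Ifng, the signature cytokine, had 12.4 FPKM (interval 10.8 to 13.9) in Th1 and was listed at 0 in Th2. The largest difference of all genes was that of Plac8, which encodes a small cysteine-rich protein, with 86.7 FPKM in Th1 and 0.0943 FPKM in Th2 (log2 difference 7.20, interval 6.73 to 7.66). Genes of the cytotoxic granule were higher in Th1 as well. Gzmb, a protease of these granules, had 251 FPKM in Th1 and 42.6 FPKM in Th2, the pore protein Prf1 had 2.93 FPKM in Th1 and 0.1003 FPKM in Th2, and the granule membrane protein Nkg7 had 44.6 FPKM in Th1 and 0.381 FPKM in Th2. Gzmb was thus the one of these with a sizeable level in Th2 cells too.

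A set of 3 inflammatory chemokines was higher in Th1. Ccl5 had 25.5 FPKM in Th1 and 0.283 FPKM in Th2, Ccl4 had 13.8 FPKM in Th1 and 1.02 FPKM in Th2, and Ccl3 had 2.89 FPKM in Th1 and was listed at 0 in Th2. Tnf (17.3 FPKM in Th1 and 14.05 FPKM in Th2) and Lta (56.2 FPKM in Th1 and 83.9 FPKM in Th2), cytokines of the TNF family made by many activated T cells, were not called. Cxcr3, a homing receptor that T-bet is known to induce, was under the minimum, with 1.24 FPKM in Th1 and a listing at 0 in Th2. Il10, which both lineages can make, had 0.0855 FPKM in Th1 and 3.28 FPKM in Th2 and so stood on the Th2 side.

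Among the 12 largest differences toward Th1 were 2 more secreted proteins and 2 surface proteins of the Ly6 family. Spp1, the matrix protein and cytokine osteopontin, had 37.2 FPKM in Th1 and 0.172 FPKM in Th2, and Timp1, an inhibitor of metalloproteinases, had 36.03 FPKM in Th1 and 0.688 FPKM in Th2. Ly6a, also known as Sca-1, had 679.6 FPKM in Th1 and 8.62 FPKM in Th2, and Ly6c1 had 64.5 FPKM in Th1 and 0.345 FPKM in Th2. Ly6a was the most abundant of these 4 in Th1 cells, and levels in FPKM are per length, so they can be set side by side between genes. Tbkbp1, an adaptor that binds the kinase TBK1, lies next to Tbx21 and had 38.8 FPKM in Th1 and 0.697 FPKM in Th2. The pseudogene Atp6v0c-ps2 (17.8 FPKM in Th1 and 0.0134 FPKM in Th2) shares sequence with its parent gene, so its value is uncertain.

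**Figure D2:**
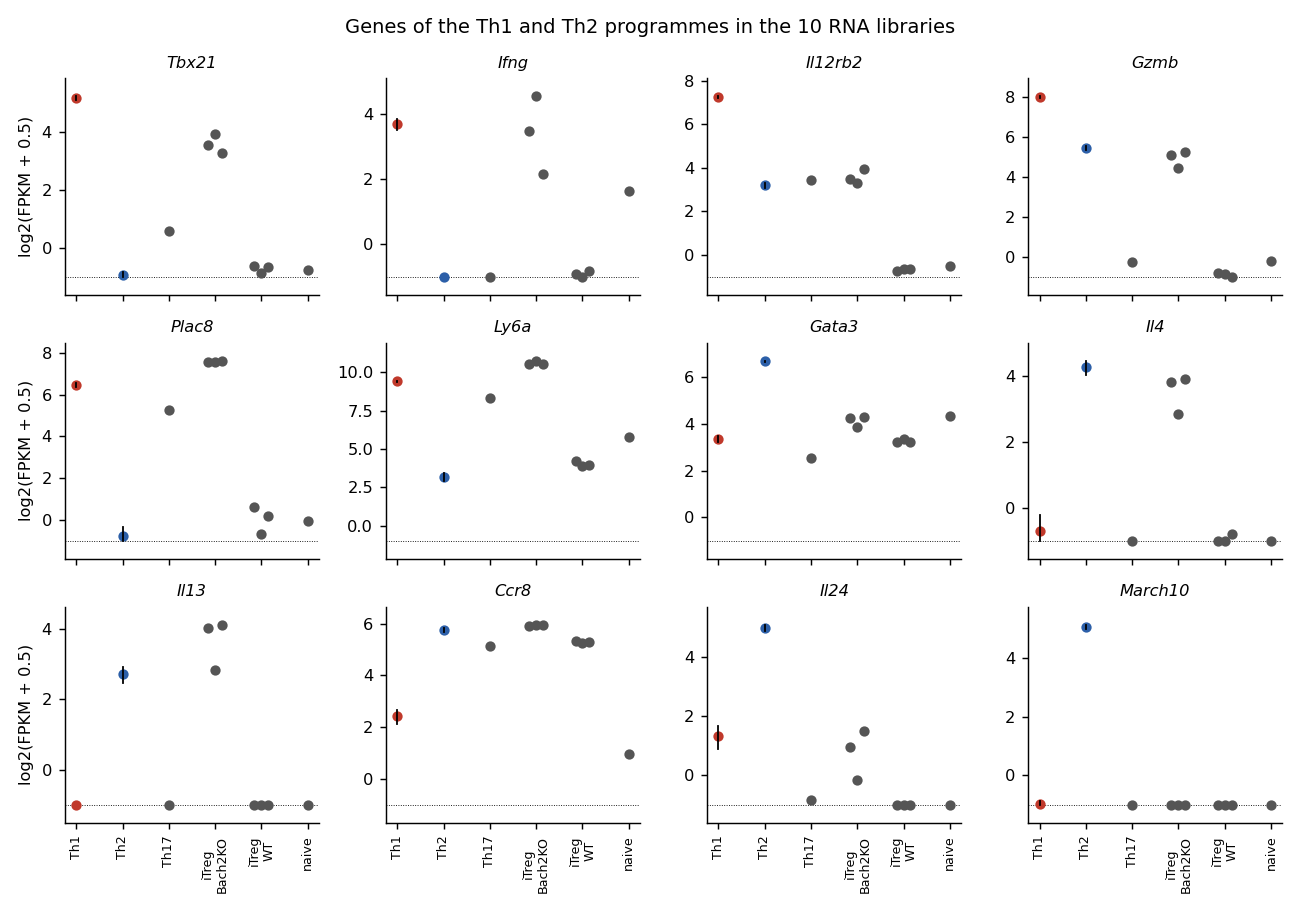
Levels of 12 genes of the Th1 and Th2 programmes in the 10 RNA libraries (y axis, log2(FPKM + 0.5); x axis, culture), with Th1 in red, Th2 in blue, every other library in grey, 1 point per library and the deposited intervals of Th1 and Th2 as vertical lines. The dotted line marks 0 FPKM. Tbx21 and Ifng are high in Th1 and at or near the dotted line in Th2, Il4 and Il13 are the reverse, and March10 stands well above the dotted line in the Th2 library only.

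Genes of the interferon response, the longest of the 15 lists, were mostly higher in Th1. Of 58 listed genes, 47 loci were kept, 30 were called higher in Th1 and 1, the feedback inhibitor Socs1, was called higher in Th2, with a median difference of 1.32. They include signalling factors, GTPases of cell-autonomous immunity and genes of antigen presentation. Stat2 (26.2 FPKM in Th1 and 15.3 FPKM in Th2) and Irf9 (23.5 FPKM in Th1 and 13.6 FPKM in Th2), factors of type I interferon signalling, were not called. All 9 listed guanylate-binding proteins were called higher in Th1. Gbp2, the most abundant of them, had 765 FPKM in Th1 and 67.8 FPKM in Th2, and Gbp10, with the largest difference, had 16.2 FPKM in Th1 and 0.875 FPKM in Th2. Among immunity-related GTPases, Iigp1 had 28.8 FPKM in Th1 and 0.159 FPKM in Th2 and Irgm1 had 29.5 FPKM in Th1 and 2.75 FPKM in Th2. The levels of the near-identical Tgtp1 (25.9 FPKM in Th1 and 2.66 FPKM in Th2) and Tgtp2 (24.1 FPKM in Th1 and 2.33 FPKM in Th2) are uncertain because of this likeness. Of the pair only Tgtp2 had intervals that were apart.

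Called members also included genes of antigen presentation. Tap1, a subunit of the peptide transporter, had 198 FPKM in Th1 and 70.7 FPKM in Th2. B2m, the light chain of MHC class I, had 1933 FPKM in Th1 and 878 FPKM in Th2, and Nlrc5, the transactivator of MHC class I genes, had 35.8 FPKM in Th1 and 4.97 FPKM in Th2. Of these 3, Nlrc5 was the lowest in level and had the largest difference (log2 difference 2.73). Genes known best from the type I interferon response were divided. Isg15, a ubiquitin-like modifier, had 7.25 FPKM in Th1 and 0.504 FPKM in Th2, Irf7, a factor of type I interferon induction, had 5.53 FPKM in Th1 and 0.567 FPKM in Th2, and Bst2, which tethers viruses to the cell surface, had 45.9 FPKM in Th1 and 19.9 FPKM in Th2. All 3 were called higher in Th1. Others stayed low in both libraries: Mx1 had 0.369 FPKM in Th1 and 0.0993 FPKM in Th2, Ifit3 had 0.0525 FPKM in Th1 and 0.0517 FPKM in Th2, and Rsad2 had 0.105 FPKM in Th1 and was listed at 0 in Th2. The chemokine Cxcl9 was listed at 0 in both.

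Stretches of mm9 sequence upstream of 5 interferon-response genes are shown because the interferon response motif, 2 copies of GAAA with 2 bases between them on either strand, was, of the 7 motifs searched, the one whose share was furthest apart between genes higher in Th1 and genes higher in Th2. Each is 80 bases long, lies upstream of the annotated start and is written 5′ to 3′ on the strand of the gene, with matches to this motif in capitals. They are the 5 called genes of the list with the largest differences whose start has such a match, apart from Iigp1, which has matches too and whose sequence is not shown.
Gbp2, chr3:142283533-142283612, plus strand: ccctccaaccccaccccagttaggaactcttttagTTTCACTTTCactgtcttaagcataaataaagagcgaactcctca
Zbp1, chr2:173044425-173044504, minus strand: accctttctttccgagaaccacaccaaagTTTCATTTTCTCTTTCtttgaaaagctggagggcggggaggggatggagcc
Irgm1, chr11:48684902-48684981, minus strand: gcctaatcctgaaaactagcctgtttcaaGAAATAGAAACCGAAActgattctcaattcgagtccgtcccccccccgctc
Tgtp2, chr11:48877740-48877819, minus strand: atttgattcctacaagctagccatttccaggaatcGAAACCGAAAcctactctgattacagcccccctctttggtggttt
Gbp1, chr3:142257639-142257718, plus strand: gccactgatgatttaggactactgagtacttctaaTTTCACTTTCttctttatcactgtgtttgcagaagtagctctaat
The matches begin 59 bases before the start of Gbp2, 52 bases before that of Zbp1, 104 bases before that of Irgm1, 70 bases before that of Tgtp2 and 137 bases before that of Gbp1, and those of Zbp1 and Irgm1 are 2 overlapping matches each. Zbp1, a sensor of Z-form nucleic acid, had 60.7 FPKM in Th1 and 5.50 FPKM in Th2, and Gbp1 had 8.11 FPKM in Th1 and 0.532 FPKM in Th2.

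Over windows from 250 bases before to 50 bases after the start, this motif was found at 52 of 446 genes higher in Th1 (11.7%), at 6 of 226 genes higher in Th2 (2.65%) and at 3.24% of all 9836 genes kept that have a window. The share was highest on the interferon list, where 16 of the 30 genes called higher in Th1 held a match (53.3%). It was 8.65% (36 of 416) among the other genes higher in Th1, which hold most of the 52 genes with a match. No share was taken over listed genes that were not called, so 53.3% cannot be tied to the call. The letters TGANTCA, the core shared by AP-1 and Bach2, were found at 10.8% of windows of genes higher in Th1, 7.08% of those higher in Th2 and 4.09% of all. The STAT letters TTC and GAA with 3 bases between them were found at 9.64% in Th1, 7.96% in Th2 and 6.78% of all, and the wider spacing bound by STAT6, TTC and GAA with 4 bases between them, at 6.05% in Th1, 7.96% in Th2 and 5.19% of all. The T-box letters TCACACC were found at 5.16% in Th1, 2.21% in Th2 and 3.06% of all. The GATA letters AGATAA were found at 7.17% in Th1, 6.64% in Th2 and 5.77% of all, and TGATAA at 4.71% in Th1, 3.98% in Th2 and 3.81% of all. Motifs were counted separately on both strands, so the same stretch can count under more than 1 of them. Base composition differs with the groups: the median GC content of the windows was 57.7% for genes higher in Th1, 61.7% for genes higher in Th2 and 61.7% for all, and its part in these shares was not tested. A match describes letters in the window and not binding.

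**Figure D3:**
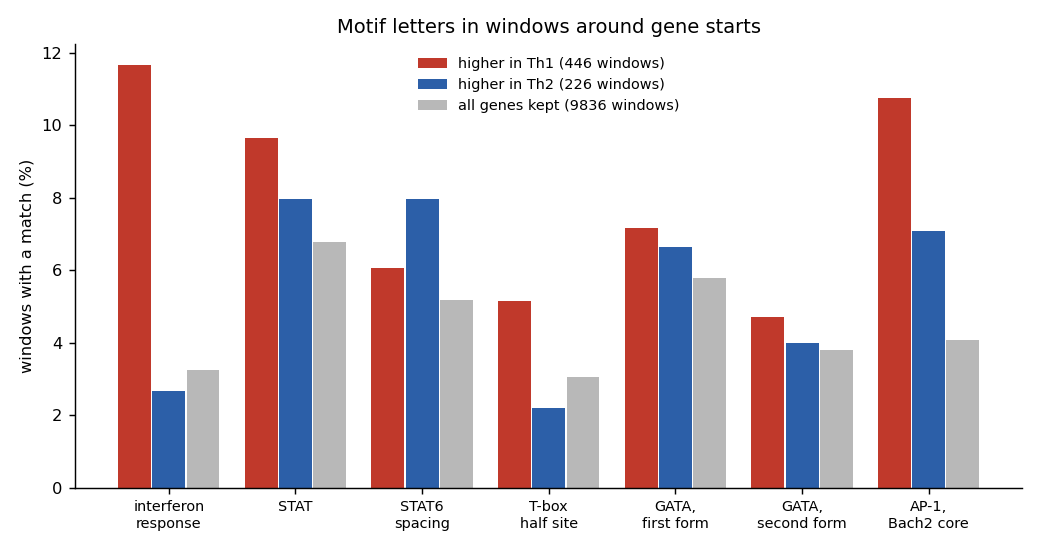
Share of windows from 250 bases before to 50 bases after the gene start that hold each motif (y axis, percent; x axis, motif), for genes higher in Th1 (red, 446 windows), genes higher in Th2 (blue, 226 windows) and all genes kept (grey, 9836 windows). GATA, first form, is AGATAA and GATA, second form, is TGATAA. The interferon response bar stands at 11.7% for Th1, above 2.65% for Th2 and 3.24% for all.

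The cytokines of the Th2 programme were low in number but far apart. Of 18 listed genes 6 were kept, 1 was called higher in Th1 and 5 higher in Th2, with a median difference of -3.18. Il4 had 0.118 FPKM (interval 0 to 0.353) in Th1 and 18.6 FPKM (15.7 to 21.6) in Th2, a log2 difference of -4.95. Il13 was listed at 0 in Th1 and had 6.02 FPKM (4.96 to 7.08) in Th2. Il5, the eosinophil growth factor, was listed at 0 in Th1 and had 0.279 FPKM in Th2, under the minimum, so 2 of the 3 classical Th2 cytokines were above it after 3 days. Il24, a cytokine of the IL-10 family, had 2.01 FPKM in Th1 and 31.4 FPKM in Th2. Tnfsf8, the ligand of CD30, had 24.5 FPKM in Th1 and 61.1 FPKM in Th2, and its receptor Tnfrsf8 had 4.12 FPKM in Th1 and 23.2 FPKM in Th2. Ligand and receptor were thus both higher in Th2. Il21, which helps B cells, was the member higher in Th1, with 8.78 FPKM in Th1 and 0.405 FPKM in Th2. Il3, Il9, Il31, Csf2 and Areg were all under the minimum in both libraries.

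The Th2 cytokine genes share a stretch of chromosome 11, and not all of its genes went the same way. In the order of the chromosome, Sept8 comes before the others and was called higher in Th2. Kif3a, a kinesin motor gene, lies past Sept8 and had 3.31 FPKM in Th1 and 6.23 FPKM in Th2. Then come Il4 (chr11:53425963-53432167 in mm9) and Il13 (chr11:53444825-53448204), and then the DNA repair gene Rad50 with 14.5 FPKM in Th1 and 23.7 FPKM in Th2. Kif3a and Rad50 had intervals that were apart, higher in Th2, but less than 2-fold. Past Il5 lies Irf1 (chr11:53583516-53591876), an interferon-response factor, which was higher in Th1 by a log2 difference of 2.65. Farther on, Pdlim4 (chr11:53868430-53882519), a PDZ and LIM domain protein, had 0.432 FPKM in Th1 and 12.7 FPKM in Th2. Genes higher in Th2 thus lay on both sides of a gene higher in Th1. The transporter gene Slc22a5 between Irf1 and Pdlim4 had 5.07 FPKM in Th1 and 5.07 FPKM in Th2. The 200 bases upstream of the starts of Il4 and Il13 are shown as the promoters of the cytokines that define Th2 cells, and those of Nkg7 as a Th1 counterpart, each 5′ to 3′ on the strand of the gene in mm9. Capitals mark the STAT6 spacing in Il4, AGATAA in Il13 and TCACACC, read on the other strand, in Nkg7.
Il4, chr11:53432168-53432367, minus strand: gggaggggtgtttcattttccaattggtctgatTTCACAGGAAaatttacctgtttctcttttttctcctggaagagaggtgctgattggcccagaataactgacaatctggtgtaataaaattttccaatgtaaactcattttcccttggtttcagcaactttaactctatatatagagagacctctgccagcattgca
Il13, chr11:53448205-53448404, minus strand: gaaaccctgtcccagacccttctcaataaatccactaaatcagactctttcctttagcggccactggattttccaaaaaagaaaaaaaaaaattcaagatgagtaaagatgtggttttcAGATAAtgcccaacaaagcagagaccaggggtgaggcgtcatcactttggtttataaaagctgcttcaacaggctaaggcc
Nkg7, chr7:50692308-50692507, plus strand: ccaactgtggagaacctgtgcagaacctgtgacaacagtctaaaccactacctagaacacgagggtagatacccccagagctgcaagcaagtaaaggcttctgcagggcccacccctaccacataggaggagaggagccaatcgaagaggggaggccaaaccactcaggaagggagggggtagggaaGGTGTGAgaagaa
The marked match in Il4 begins 167 bases before the start, that in Il13 81 bases and that in Nkg7 13 bases. The Il4 stretch also holds an unmarked match to the interferon response motif, which begins 190 bases before the start. The STAT6 spacing and TCACACC were more frequent on the side of the gene shown, but AGATAA was not (6.64% in Th2 and 7.17% in Th1).

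The transcription factors and receptors linked to Th2 cells separated less than the cytokines did. Of 32 listed genes 26 were kept, 1 was called higher in Th1 and 10 higher in Th2, with a median difference of -0.30. Gata3 had 9.77 FPKM (interval 8.99 to 10.5) in Th1 and 102 FPKM (99.4 to 104) in Th2, a log2 difference of -3.32. It was thus present in both cultures, unlike Tbx21, which was near 0 in Th2. Il4ra, the IL-4 receptor chain, had 62.1 FPKM in Th1 and 167 FPKM in Th2, and Stat6, which carries its signal, had 54.4 FPKM in Th1 and 65.3 FPKM in Th2 and was not called. Maf, known as an activator of Il4, was low and on the Th1 side, with 2.56 FPKM in Th1 and 0.959 FPKM in Th2. Its call was lost at a pseudocount of 1 FPKM (log2 difference 0.86) and under quantile normalization (0.90), which left the list with none higher in Th1. Nfil3, a basic leucine zipper factor, had 49.3 FPKM in Th1 and 158 FPKM in Th2, and Rbpj, the DNA-binding partner of Notch, had 37.9 FPKM in Th1 and 145 FPKM in Th2. Epas1, which encodes the hypoxia factor HIF-2α, had 1.06 FPKM in Th1 and 15.2 FPKM in Th2, and Ecm1, a secreted protein known for its part in the exit of Th2 cells from lymph nodes, had 33.9 FPKM in Th1 and 213 FPKM in Th2. Both were called higher in Th2. Gfi1, a repressor known to favour Th2 cell growth, had 25.2 FPKM in Th1 and 22.6 FPKM in Th2, with intervals that overlap, and Il1rl1, the IL-33 receptor, was listed at 0 in Th1 and had 0.00954 FPKM in Th2.

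Of the 12 largest differences toward Th2, Il4 and Il13 were the 2 that belong to a Th2 list. March10, a RING-type ubiquitin ligase of the MARCH family, had 0.0164 FPKM (interval 0 to 0.0493) in Th1 and 32.6 FPKM (30.7 to 34.5) in Th2, a log2 difference of -6.00. Myo6, a myosin that moves toward the minus end of actin filaments, had 2.28 FPKM in Th1 and 166 FPKM in Th2. Both differences were larger than that of Il4. Pros1, protein S, a ligand of TAM receptors, had 5.15 FPKM in Th1 and 126 FPKM in Th2, and Tanc2, a scaffold protein known from synapses, had 1.82 FPKM in Th1 and 48.5 FPKM in Th2. Nrgn, neurogranin, a calmodulin-binding protein known from neurons, had 0.779 FPKM in Th1 and 38.1 FPKM in Th2. All 5 were low in Th1 and well above that in Th2. Others were Fam198a (0.245 FPKM in Th1 and 22.7 FPKM in Th2), the secreted ADAMTS-like protein Adamtsl3 (0.0333 FPKM in Th1 and 12.6 FPKM in Th2) and the ephrin ligand Efna5 (0.0592 FPKM in Th1 and 7.04 FPKM in Th2).

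A steroid-metabolizing gene cluster was also on the Th2 side. Akr1c18, which encodes 20α-hydroxysteroid dehydrogenase, an enzyme that inactivates progesterone, had 4.43 FPKM in Th1 and 162 FPKM in Th2. Its neighbours on chromosome 13 were higher in Th2 too: Akr1c13 had 3.48 FPKM in Th1 and 31.1 FPKM in Th2, and Akr1c12 had 1.51 FPKM in Th1 and 19.9 FPKM in Th2, while Akr1c14 was listed at 0 in both. Members of this family are alike in sequence, so their separate levels are uncertain. Cyp11a1, the enzyme that opens steroid synthesis by cleaving the side chain of cholesterol, had 3.81 FPKM in Th1 and 10.8 FPKM in Th2. Of the 25 listed genes of prostaglandin, steroid and lipid mediators 10 were kept, and Akr1c18 and Cyp11a1 were the 2 called. Hpgds, prostaglandin D2 synthase, had 0.427 FPKM in Th1 and 0.405 FPKM in Th2, under the minimum.

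Cytokine signalling genes were divided between the cultures. Of 23 listed JAK, STAT and SOCS genes 22 were kept, 2 were called higher in Th1, Socs3 among them, and 3 higher in Th2, with a median difference of 0.20. The called genes made 22.7% of those kept, against 6.87% over all genes kept. The 3 on the Th2 side are all feedback inhibitors of cytokine receptors. Socs1 had 38.7 FPKM in Th1 and 125 FPKM in Th2, Socs2 had 19.6 FPKM in Th1 and 61.2 FPKM in Th2, and Cish had 76.6 FPKM in Th1 and 188 FPKM in Th2. Socs3, an inhibitor best known downstream of STAT3, went the other way, with 46.3 FPKM in Th1 and 22.6 FPKM in Th2. Its log2 difference of 1.02 lay close to the threshold. Of 35 listed interleukin and related cytokine receptors 25 were kept, 6 were called higher in Th1 and 3 higher in Th2 (36% called). Besides the IL-12, IL-18 and IFN-γ receptor chains described above, Il15ra (15.9 FPKM in Th1 and 5.69 FPKM in Th2) and Il17ra (45.02 FPKM in Th1 and 21.7 FPKM in Th2) were higher in Th1, and Tgfbr1 (4.93 FPKM in Th1 and 11.5 FPKM in Th2) was higher in Th2. The IL-2 receptor chain Il2ra, the marker CD25 of activated T cells, was high in both and not called, with 232 FPKM in Th1 and 361 FPKM in Th2.

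Homing receptors gave 4 calls to each side out of 21 kept (38.1% called, against 6.87% of all genes kept). Ccr4, a receptor for Ccl17 and Ccl22, had 29.1 FPKM in Th1 and 105 FPKM in Th2, and Ccr8 had 4.90 FPKM in Th1 and 53.2 FPKM in Th2. Cxcr4, the receptor for Cxcl12, had 14.9 FPKM in Th1 and 58.4 FPKM in Th2. All 3 were higher in Th2 but present in Th1 cells. S1pr1, which guides cells out of lymph nodes, had 29.96 FPKM in Th1 and 7.05 FPKM in Th2, and Icam1, an adhesion ligand, had 15.7 FPKM in Th1 and 4.77 FPKM in Th2. Among 36 kept genes of the TNF family and costimulation, 8 were called higher in Th1 and 3 higher in Th2 (30.6% called). Fas, a death receptor, had 34.5 FPKM in Th1 and 8.26 FPKM in Th2, Cd80, a ligand of Cd28, had 3.50 FPKM in Th1 and 0.248 FPKM in Th2, and Tnfsf4, the ligand of OX40, had 5.53 FPKM in Th1 and 1.22 FPKM in Th2. The inhibitory receptor Pdcd1, known as PD-1, was also higher in Th1, with 23.5 FPKM in Th1 and 9.38 FPKM in Th2. Ctla4 (192 FPKM in Th1 and 233 FPKM in Th2) and Lag3 (186 FPKM in Th1 and 162 FPKM in Th2), 2 further inhibitory receptors, were not called.

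**Figure D4:**
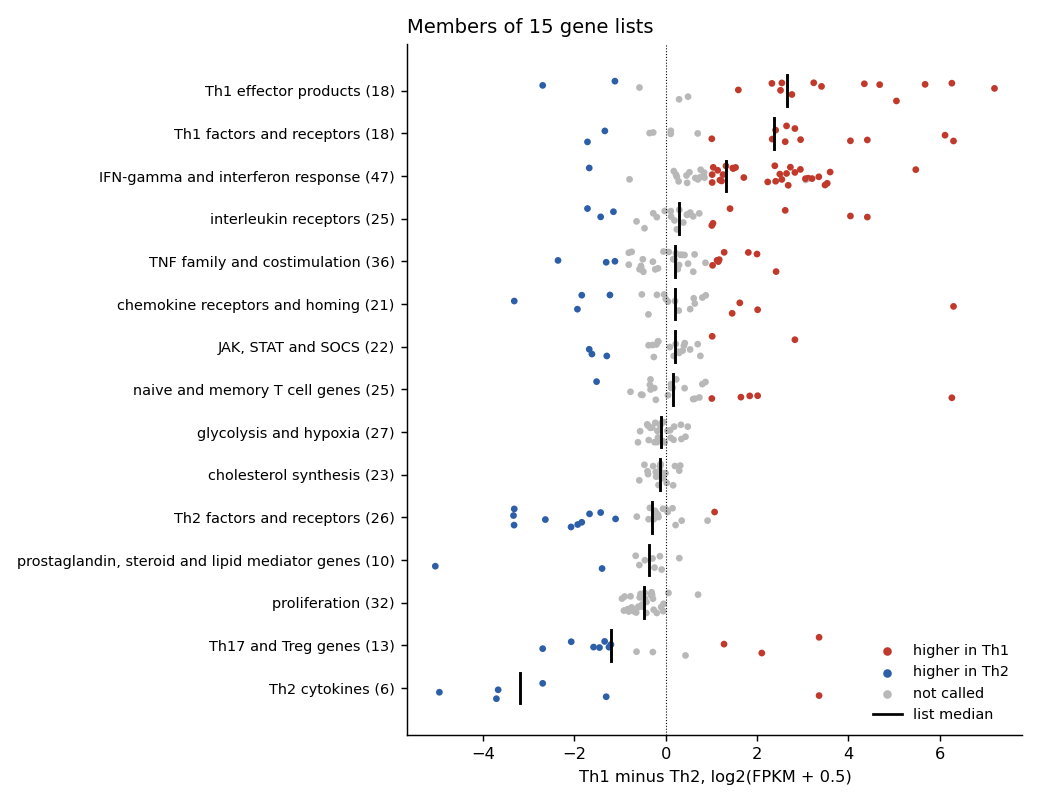
Difference between Th1 and Th2 (x axis, Th1 minus Th2 on the log2(FPKM + 0.5) scale) for each kept member of 15 gene lists (y axis, with the number of members kept in parentheses), red for genes called higher in Th1, blue for genes called higher in Th2 and grey for the rest, with the list median as a black bar. The Th1 effector products stand highest, at a median of 2.65, the Th2 cytokines lowest, at -3.18, and the proliferation, glycolysis and cholesterol lists hold no called gene.

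Foxp3 and Il17a, which mark other lineages, were near 0 in both cultures. Foxp3, the Treg factor, had 0.308 FPKM in Th1 and 0.226 FPKM in Th2, and Il17a was listed at 0 in Th1 and had 0.0960 FPKM in Th2. Of 26 listed Th17 and Treg genes 13 were kept, 3 were called higher in Th1 and 7 higher in Th2, with a median difference of -1.20. The called genes made 76.9% of those kept, against 6.87% over all genes kept. The members that separated are also expressed in activated helper cells: Batf, an AP-1 family factor, had 35.6 FPKM in Th1 and 82.4 FPKM in Th2, Nrp1, a receptor for semaphorins, had 3.52 FPKM in Th1 and 16.3 FPKM in Th2, and Nt5e, the ectoenzyme CD73, had 13.7 FPKM in Th1 and 2.80 FPKM in Th2. Batf and Nrp1 were higher in Th2 and Nt5e in Th1. Batf3, a relative of Batf on the list of dendritic cell markers, had 6.77 FPKM in Th1 and 59.9 FPKM in Th2. The MHC class II gene H2-Aa on that list had 0.218 FPKM in Th1 and 0.322 FPKM in Th2. H2-Aa does not stand for the whole list, which summed to 136 FPKM in Th1 and 207 FPKM in Th2. Of its 10 members 3 were kept, and Batf3 was the 1 called. Bcl6, the factor of follicular helper cells, had 2.71 FPKM in Th1 and 0.527 FPKM in Th2.

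Genes of naive and memory T cells were mostly alike. Of 26 listed genes 25 were kept, 5 were called higher in Th1 and 1 higher in Th2, with a median difference of 0.16. The called genes made 24% of those kept, against 6.87% over all genes kept. Bach2, a repressor of the CNC family that restrains effector programmes, had 26.2 FPKM (interval 25.4 to 26.99) in Th1 and 24.1 FPKM (23.4 to 24.9) in Th2. Its intervals were apart but its log2 difference was 0.12. Id3, an inhibitor of E proteins, had 51.4 FPKM in Th1 and 14 FPKM in Th2, the opposite direction to Id2. Igfbp4, which binds insulin-like growth factors, had 353 FPKM in Th1 and 112 FPKM in Th2. Tcf7 (93.02 FPKM in Th1 and 69.7 FPKM in Th2) and Lef1 (42.2 FPKM in Th1 and 61.6 FPKM in Th2), factors of naive and memory cells, were not called.

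Genes of growth and metabolism showed small differences, and more of them were lower in Th1 than higher. None of the 32 proliferation genes was called, yet 28 had intervals that were apart and lower values in Th1, with a median difference of -0.48. Of all genes kept, 21.8% had intervals that were apart and lower values in Th1. The replication helicase gene Mcm5 had 38.1 FPKM in Th1 and 72.3 FPKM in Th2, and Mki67, which marks cycling cells, had 109.6 FPKM in Th1 and 166 FPKM in Th2. Myc, a transcription factor that drives cell growth after activation, was the 1 member with intervals apart in the other direction, with 68.8 FPKM in Th1 and 41.9 FPKM in Th2. In RNA from whole cultures, fewer cells with a transcript and less of it per cell cannot be told apart. None of 27 glycolysis and hypoxia genes (median difference -0.11) and none of 23 cholesterol synthesis genes (median difference -0.12) was called. Of all genes kept 6.87% were called, so the lack of calls in lists this short says little. Intervals were apart with lower values in Th1 for 16 glycolysis and hypoxia genes and 13 cholesterol synthesis genes. They were apart with higher values in Th1 for 9 and 4. Ldha, lactate dehydrogenase, had 1029 FPKM in Th1 and 1061 FPKM in Th2.

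Genes that separated Th1 from Th2 had different levels in the other cultures. Of the 456 genes higher in Th1, the naive library was closer to Th1 for 156 and closer to Th2 for 300 (65.8%). Of the 229 genes higher in Th2, the naive library was closer to Th1 for 200 (87.3%) and closer to Th2 for 29. For most genes of either set the naive value thus lay nearer to the culture in which the gene was lower. With all libraries scaled to equal summed FPKM, since the naive library has the smallest sum, the shares were 58.8% and 80.8%. Both sets were chosen for a high value in either Th1 or Th2, which favours a further library lying nearer the lower value. No share over all genes kept is given, so these shares cannot show a property of naive cells. The WT iTreg libraries were also closer to the lower culture for 58.6% of the genes higher in Th1 and 82.5% of those higher in Th2. The Th17 culture was closer to Th1 for 253 genes of the first set and for 192 of the second. The Bach2KO iTreg libraries were closer to Th2 for 93 of the 229 genes higher in Th2 (40.6%) and the WT iTreg libraries for 40 (17.5%). At equal summed FPKM these were 90 (39.3%) for Bach2KO and 48 (21.0%) for WT, a narrower gap. Of the 456 genes higher in Th1, the Bach2KO libraries were closer to Th1 for 252 (55.3%) and the WT iTreg libraries for 189 (41.4%). At equal summed FPKM the latter counts were 248 (54.4%) for Bach2KO and 207 (45.4%) for WT.

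Examples show how the sets divide. Tbx21 averaged 11.7 ± 2.76 FPKM in Bach2KO and 0.107 ± 0.0575 FPKM in WT iTreg cells (SD, n = 3 each), with 1.01 FPKM in Th17 and 0.0868 FPKM in naive cells. Il4 averaged 11.5 ± 4.19 FPKM in Bach2KO and 0.0270 ± 0.0468 FPKM in WT iTreg cells (SD, n = 3 each) and was listed at 0 in Th17 and naive cells, and Il13 averaged 13.02 ± 5.55 FPKM in Bach2KO iTreg cells and was listed at 0 in all 3 WT libraries, in Th17 and in naive cells. These 3 genes, from both the Th1 and the Th2 set, thus had higher means in Bach2KO than in WT iTreg cells, a difference that was not tested. March10 was listed at 0 in all 6 iTreg libraries, in Th17 and in naive cells, so 0.0164 FPKM in Th1 was its highest value outside the Th2 culture. Tanc2, its neighbour, averaged 0.184 ± 0.0352 FPKM in Bach2KO and 0.544 ± 0.0666 FPKM in WT iTreg cells (SD, n = 3 each), with 0.776 FPKM in Th17 and 0.384 FPKM in naive cells. Some genes were high in naive cells and low in 1 helper culture: Ly6c1 had 94.8 FPKM and Pdlim4 42.3 FPKM in naive cells. Ly6c1 was thus near its Th1 level there, and Pdlim4 above its Th2 level. Il18r1 averaged 35.5 ± 9.26 FPKM in Bach2KO and 53.6 ± 2.91 FPKM in WT iTreg cells (SD, n = 3 each) and had 17.5 FPKM in Th17 and 18.3 FPKM in naive cells, so Th2 was the culture in which it was near 0.

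Genes of 1 direction often lay next to each other. Of the 456 genes higher in Th1, 155 (34.0%) had another gene higher in Th1 within 100 kb, against 9.95% of all genes kept. Of the 229 genes higher in Th2, 57 (24.9%) had another gene higher in Th2 within 100 kb, against 5.50% of all genes kept. Many of these runs are families of like sequence, where the level of each gene is uncertain. On the Th1 side there were 63 runs, of which 17 held 3 or more genes, including 6 around the MHC class I genes H2-T24 to H2-T10 on chromosome 17, 6 Trim genes on chromosome 7, 5 guanylate-binding protein genes on chromosome 3 and 5 on chromosome 5. Metallothioneins, which bind zinc and copper, also formed a run: Mt1 had 194 FPKM in Th1 and 64.6 FPKM in Th2, and Mt2 had 39.4 FPKM in Th1 and 6.72 FPKM in Th2. On the Th2 side there were 25 runs, 9 with 3 genes each. One of them holds 3 genes of the H2-DM molecule, which loads peptides onto MHC class II: H2-DMa had 37.5 FPKM in Th1 and 110.4 FPKM in Th2, and H2-DMb2 had 1.38 FPKM in Th1 and 23.3 FPKM in Th2.

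Runs of unlike genes were also found. Tbx21 (chr11:96959321-96976645 in mm9) and Tbkbp1 (chr11:96997485-97011026) were both higher in Th1 while the next genes, Osbpl7 (7.66 FPKM in Th1 and 6.26 FPKM in Th2) and Kpnb1 (90.4 FPKM in Th1 and 91.04 FPKM in Th2), were not called. March10 (chr11:105222112-105318049) and Tanc2 (chr11:105451300-105790617) were both higher in Th2 and lie more than 100 kb apart. Cish, Hemk1 and 6430571L13Rik formed a run on chromosome 9 that was higher in Th2. At the Ly6 genes of chromosome 15, Ly6i (22.5 FPKM in Th1 and 0.690 FPKM in Th2) and Ly6c2 (14.4 FPKM in Th1 and 0.233 FPKM in Th2) joined Ly6a and Ly6c1, whereas Ly6e had 93.3 FPKM in Th1 and 70.6 FPKM in Th2 and was not called. The separation thus ended at Ly6e. Next to Il24 on chromosome 1, Faim3 had 0.805 FPKM in Th1 and 3.57 FPKM in Th2.

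**Figure D5:**
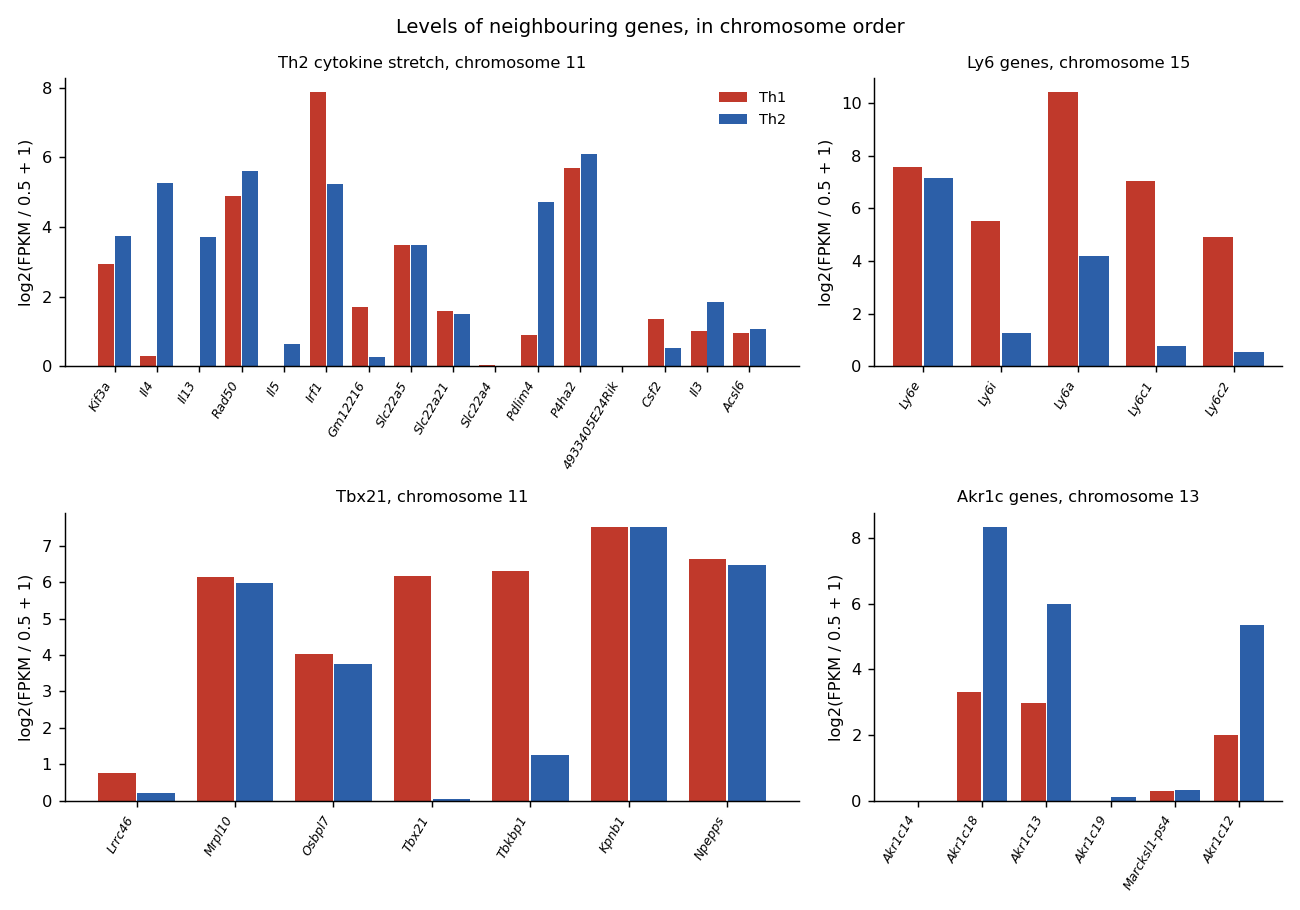
Levels of neighbouring genes in chromosome order (x axis, gene; y axis, log2(FPKM / 0.5 + 1), which is 0 at 0 FPKM) in Th1 (red) and Th2 (blue). Irf1 stands higher in Th1 between Il13 and Pdlim4, which are higher in Th2, Tbx21 and Tbkbp1 are the pair higher in Th1 at their locus, and Ly6e is nearly level while the other Ly6 genes are higher in Th1.

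Binding of Bach2 was measured in WT iTreg cells and not in Th1 or Th2 cells, so peaks describe another culture. Of 22494 deposited peaks, at least 1 lay within 10 kb of 69.7% of the genes higher in Th1, 68.1% of the genes higher in Th2 and 60.1% of all genes kept. The median locus length was 20.0 kb for genes higher in Th1, 18.1 kb for genes higher in Th2 and 20.4 kb for all. Tbx21, Ifng, Il13 and March10 had no peak in that distance, Il4 had 1, Gata3, Ccr4 and Il12rb2 had 4 each and Il10, Il4ra and Ly6a 3 each. For the 38 called genes whose peaks were listed one by one, a set that holds the lineage genes and the largest differences, the peaks with the highest deposited scores are shown as 101 bases around the summit in mm9 on the forward strand, with matches to TGANTCA in capitals.
Il4ra peak, chr7:132698134-132698234: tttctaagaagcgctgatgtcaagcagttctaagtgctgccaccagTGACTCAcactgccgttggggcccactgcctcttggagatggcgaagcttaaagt
Ly6a peak, chr15:74819897-74819997: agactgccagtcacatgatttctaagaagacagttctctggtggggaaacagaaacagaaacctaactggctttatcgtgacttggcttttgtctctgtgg
Ccr4 peak, chr9:114390234-114390334: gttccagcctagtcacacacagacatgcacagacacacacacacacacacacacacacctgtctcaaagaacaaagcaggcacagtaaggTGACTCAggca
Efna5 peak, chr17:63232659-63232759: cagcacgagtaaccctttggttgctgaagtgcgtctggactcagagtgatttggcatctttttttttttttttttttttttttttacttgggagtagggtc
The peak inside Il4ra had 389 tags and a deposited fold enrichment of 33.5, that 5359 bases outside Ly6a 110 tags and 53.9-fold, that 9149 bases outside Ccr4 205 tags and 48.8-fold and that 2043 bases outside Efna5 135 tags and 46.8-fold, all values being those of the authors. The windows of Il4ra and Ccr4 hold TGANTCA and those of Ly6a and Efna5 do not, and 33.5% of all 22494 such windows do.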

How the data were processed

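Each RNA library started from 200 ng of total RNA and gave reads of 50 bp, per the labels' protocols. Uniquely mapped reads were aligned to mm9 with TopHat and summarised with Cufflinks, per the labels' protocols, and the sources used here name neither versions nor the annotation. The deposited values are FPKM with their confidence bounds, per the file headers, although the design had allowed for RPKM, and they were used with the authors' scaling. Read as 2 Poisson SD, the bounds imply a whole number of reads at 70.0% of low-count single-start genes in Th1 and 70.9% in Th2. Peaks were called with MACS on Bowtie alignments, per the file headers and the submitters' processing notes. The deposited peak values are a tag count, a score, a fold enrichment (a ratio to local background) and an FDR in percent, per the file headers.

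A pseudocount of 0.5 FPKM was added before taking log2, which understates differences of genes near 0. Loci with a failed estimate, 21 past the filters, were left out, and loci start at the deposited position plus 1. No p-value was computed. The rule was run on simulated libraries that held counting error alone, so that run cannot speak to spread between cultures. Members and lists (15 gene lists and 9 marker lists) were chosen with earlier results of these data known. The rule for named genes took 31 genes fixed by name, the 12 largest differences in each direction among called genes of at least 5 FPKM, and up to 4 called members per list, 76 genes in all, of which some are not reported here. Other list members, neighbours, runs and sequences are named after their values were seen, and the motif search was added after the files were read. Windows came from the mm9 genome with GENCODE strands. Where a symbol is repeated in the files, 241 symbols in all, each locus was kept apart. Levels of genes in families of like sequence are uncertain, since uniquely mapped reads were used. Overlapping and antisense genes cannot be told apart, since no use of strand is stated. The alternatives tried were other pseudocounts, scalings, minimum levels, locus lengths, fold and interval rules and peak distances. Analyses used Python 3.11.15 with pandas 2.3.3, numpy 2.4.6 and matplotlib 3.10.9.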

Additional observations from a re-analysis of the deposited data

How the results depend on the processing

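The counts depend mainly on the fold asked for. Without a fold, 2806 genes were higher in Th1 and 2176 in Th2, and the share of calls on the Th1 side was 56.3%. At 1.5-fold the counts were 935 in Th1 and 578 in Th2, and at 4-fold 136 in Th1 and 71 in Th2. Under the other alternatives (pseudocounts, scalings, minimum levels, locus lengths, no interval rule and doubled intervals) they stayed within 1.5 times the values given above, from 336 to 569 in Th1 and from 176 to 281 in Th2. Quantile normalization, which moved the median of all genes to -0.01, gave 391 in Th1 and 269 in Th2, a Th1 share of 59.2%. Of 380 recomputed differences of named genes 71 moved beyond their interval, 67 of them with the pseudocount. Changes of direction were counted for called genes only, and there were 0. A pseudocount cannot change a direction, and the scalings shifted values little beside the 2-fold threshold. That count was thus nearly fixed in advance and is no support for the calls. Of the called genes among the 76 named by rule 2 lost their call. Cd5 lost it under all 3 scalings. Its log2 differences were 0.99 at equal summed FPKM, 0.98 with the median of all genes set to 0 and 0.96 under quantile normalization. Maf lost its call under quantile normalization (0.90) and at a pseudocount of 1 FPKM (0.86). Other genes named here were not rechecked one by one. Some of their calls lie near the threshold, such as those of Socs3 (log2 difference 1.02), Ifngr1 and Il17ra. Of 146 recomputed list medians 13 moved by more than 0.25, among them that of Th1 factors and receptors, which was 1.01 at a minimum of 5 FPKM. No paired analysis was possible because each culture has 1 library and the result comes from no test. The depth limits genes near 0 in both libraries, and culture, mice and library preparation cannot be told apart from the polarizing condition.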

Other observations

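The called genes named here belong to none of the lists and were picked after their values were seen, so they are single examples. Lif, a cytokine of the IL-6 family, had 22.1 FPKM in Th1 and 95.97 FPKM in Th2, and Csf1, the growth factor of macrophages, had 1.95 FPKM in Th1 and 21.6 FPKM in Th2. Htr1b, a serotonin receptor, was listed at 0 in Th1 and had 4.36 FPKM in Th2, Hrh2, a histamine receptor, had 1.43 FPKM in Th1 and 6.46 FPKM in Th2, and Timd2, a receptor of the TIM family, was listed at 0 in Th1 and had 4.81 FPKM in Th2. Also on the Th2 side, Ezh2, the methyltransferase of histone H3 lysine 27, had 49.3 FPKM in Th1 and 117 FPKM in Th2, and Cdk6, a kinase that drives entry into S phase, had 16.1 FPKM in Th1 and 58.2 FPKM in Th2. Id1 had 0.267 FPKM in Th1 and 6.69 FPKM in Th2, in the same direction as its relative Id2 and opposite to Id3.

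On the Th1 side, Furin, a proprotein convertase, had 94.3 FPKM in Th1 and 16.97 FPKM in Th2, and Zbtb32, a repressor known to oppose GATA3, had 28.2 FPKM in Th1 and 2.19 FPKM in Th2. P2rx7, an ATP-gated channel, had 15.4 FPKM in Th1 and 3.60 FPKM in Th2, and Crtam, an adhesion receptor of cytotoxic lymphocytes, had 6.45 FPKM in Th1 and 0.666 FPKM in Th2. Casp1, an inflammatory caspase, had 4.21 FPKM in Th1 and 1.03 FPKM in Th2, and its relative Casp4 had 22.2 FPKM in Th1 and 10.4 FPKM in Th2. Cd69, an early activation marker that holds cells in tissues, had 37.7 FPKM in Th1 and 12.4 FPKM in Th2, in the same direction as S1pr1.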
